A study of Homo sapiens with 12 samples.

Results

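The comparison set 2 human melanoma cell lines, MALME-3M and SK-MEL-5, against each other after both had been treated with interferon-γ (IFN-γ), and asked which transcript levels the lines had reached. Its members are the 6 treated libraries of the 12 in the series, 3 per line, chosen by their treatment label, and all 44700 gene rows of their count tables. Of these rows 15810 had enough reads to be tested. MALME-3M was labelled wild type, grown in Iscove's modified Dulbecco's medium with fetal bovine serum, and given IFN-γ at 200 ng/mL for 24 h. SK-MEL-5 was also labelled wild type, grown in minimum essential medium with a smaller share of serum, added pyruvate and L-glutamine, and given IFN-γ at 150 ng/mL for 24 h. The 6 untreated libraries, 3 per line, served as background. Cell line, dose and medium differed together, so their parts in any difference cannot be told apart. Each group came from triplicate wells of 1 line, and nothing in the labels ties the wells to separate experiments, so a p-value here reflects only how much the wells of a group varied, and that variation may be technical.

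IFN-γ is the cytokine by which T and NK cells act on tumour cells. It binds a receptor of IFNGR1 and IFNGR2 chains, the kinases JAK1 and JAK2 pass the signal on, and activated factors bind GAS elements and switch on IRF1 and other genes. A second wave follows in which IRF1 and related factors act on ISRE elements of antiviral and MHC class I genes, while the transactivator CIITA, held by RFX proteins and the Y-box factor NF-Y, switches on MHC class II genes. Melanoma cells present antigen through both MHC classes and answer IFN-γ with chemokines, PD-L1 and the tryptophan-consuming enzyme IDO1.

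The treated libraries held 15514412 to 21825274 gene counts. Levels are given as CPM, read counts divided by the scaled library size, per library or as the mean ± SD (n = 3 libraries). Differences are on the log2 scale, MALME-3M minus SK-MEL-5, with a standard error and an adjusted p, and a gene is called at an adjusted p below 0.05. The standard error was derived from the test, as the absolute difference divided by the square root of edgeR's quasi-likelihood F. It can be too small for wide gaps where a line held few counts. CPM is not corrected for gene length, so levels are compared between lines. Sums over lists and rankings by CPM add or order genes without that correction. Correlations across genes were 0.989 to 0.991 between libraries of a treated group and 0.814 to 0.816 between treated lines. Of the melanocyte markers, all 10 were present in both lines, and their summed level ran from 6032 to 6415 CPM in MALME-3M and from 6034 to 6205 CPM in SK-MEL-5. Transcripts of CD3D, CD2, GZMB, IFNG, JCHAIN, MS4A1 and CD163 had 0 counts in the 6 treated libraries. Other members of the T and NK, B cell and macrophage marker lists had reads, and their sums are given further below. The macrophage and dendritic list summed to 214 to 230 CPM in treated MALME-3M and 20.2 to 27.0 CPM in treated SK-MEL-5. In bulk RNA, fewer cells with a transcript and less of it per cell cannot be told apart.

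The treated lines differed in most of the transcriptome. Of the 15810 genes tested, 5597 (35.4%) were called higher in MALME-3M and 5749 (36.4%) lower, 71.8% in all. With a difference of at least 2-fold, 2691 (17.0%) were higher and 2494 (15.8%) lower. These shares are the background for every count of members that follows. The median difference over all genes was 0.00 and the median absolute difference 0.61. Between the untreated lines 71.7% of genes were called, 34.5% higher and 37.2% lower in MALME-3M. The untreated contrast shares no library with the treated one, and 9969 genes were called in the same direction in both, 87.9% of either list. Another 66 genes were called in opposite directions. Of the genes at least 2-fold apart after treatment, 86.0% were at least 2-fold apart in the same direction without it, and 364 were not called there. Across genes, the treated and untreated differences had a Pearson r of 0.954.

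**Figure D1:**
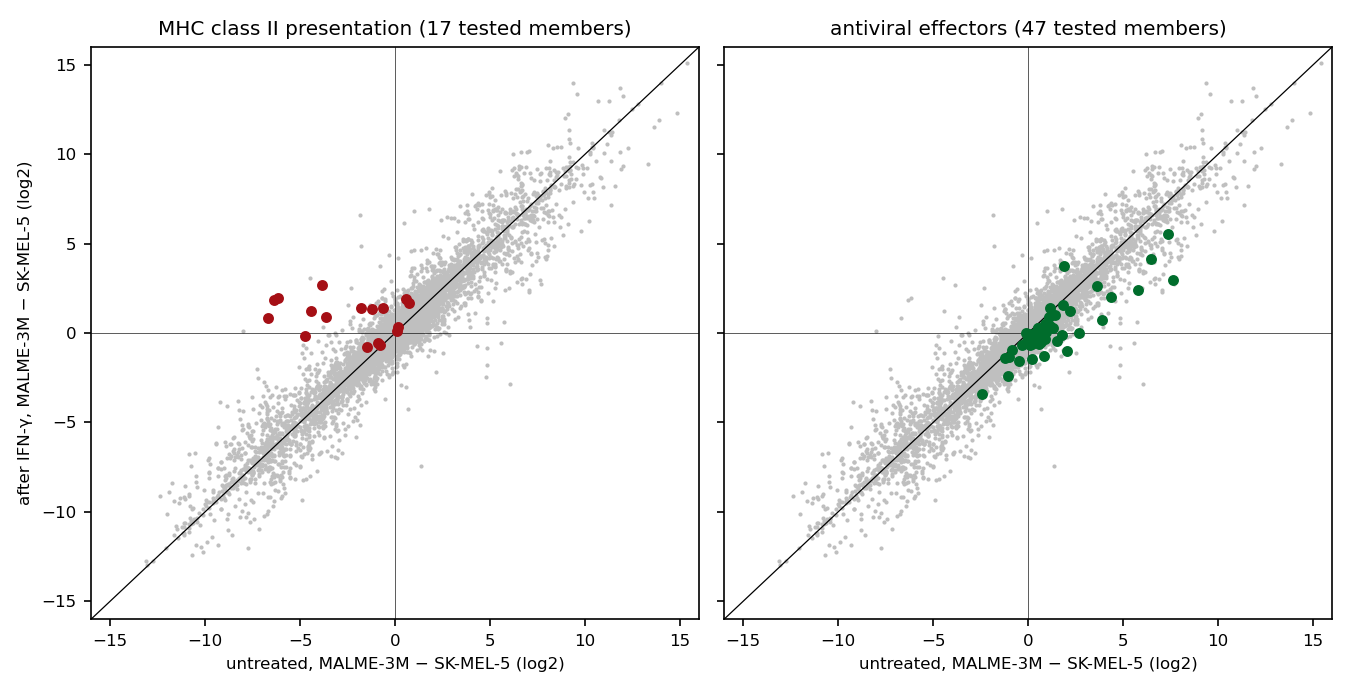
Each grey point is 1 of the 15810 tested genes, placed by the log2 difference between MALME-3M and SK-MEL-5 without treatment (x axis) and after IFN-γ (y axis), with the diagonal where both are equal; coloured points are the tested members of the MHC class II list (left, 17) and the antiviral list (right, 47). Most class II members lie above the diagonal, with a list median of -1.50 untreated and 1.22 treated, and most antiviral members below it, with a list median of 0.68 untreated and -0.12 treated.

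A smaller set of genes had a line difference that itself changed with treatment. Tested as the interaction of line and treatment in the same fit, 705 genes (4.46%) passed, 422 (2.67%) with a difference that moved toward MALME-3M and 283 (1.79%) toward SK-MEL-5. This split turned with the scaling: it was 340 and 351 with upper-quartile scaling. Members of the interferon lists were frequent among them, in opposite directions for class II and antiviral genes, as the plot of treated against untreated differences shows.

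Most signalling components differed by less than 2-fold between the treated lines, with exceptions at both ends. Of the 18 genes of the receptor and JAK-STAT list, all tested, 7 were called higher and 6 lower, with a median of 0.10. That is 72.2% called, beside 71.8% of all genes. The receptor chains IFNGR1 and IFNGR2 and the kinase JAK1, named after their values were seen, were among the 7, by 0.55, 0.47 and 0.23. The difference changed with treatment toward MALME-3M in 3 and toward SK-MEL-5 in 1, beside 2.67% and 1.79% of all genes. JAK2 was at 58.3 ± 4.34 and 53.8 ± 5.21 CPM and was not called (adjusted p = 0.188). IRF1, the first-wave transcription factor, stood at 235, 235 and 289 CPM against 204, 206 and 202 CPM. Its difference of 0.31 ± 0.08 (SE) was called (adjusted p = 0.00246) and opposite in sign to the untreated one of -0.77. From the transcript estimates the same gene gave 0.26 and was not called (adjusted p = 0.186). STAT3 was lower in MALME-3M, at 208 ± 9.87 against 345 ± 10.2 CPM. The widest differences of the list were in PTPN6, the phosphatase SHP-1 that dampens JAK signalling, at 21.8 ± 1.25 against 0.199 ± 0.0929 CPM, and in IRF8, an interferon-responsive transcription factor of immune cells. IRF8 reached 24.5, 21.6 and 25.4 CPM in SK-MEL-5 and 0.601, 0.702 and 1.35 CPM in MALME-3M, a difference of -4.71 ± 0.23 (adjusted p = 7.95e-13). Untreated libraries held 1 count in MALME-3M and 6 in SK-MEL-5, and the interaction test did not pass (adjusted p = 0.604). So few untreated counts leave the untreated gap of IRF8 poorly known, so the test cannot show that it stayed the same. SOCS1, the feedback inhibitor, was at 1.24 ± 0.719 against 2.39 ± 0.542 CPM with overlapping groups. Its call (adjusted p = 0.0363) was lost without MALME-3M library 1 or 2 or SK-MEL-5 library 2 or 3 (adjusted p of 0.0584 to 0.164), with DESeq2's Wald test (0.059) and with transcript estimates (0.109).

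MHC class II genes ended higher in MALME-3M although they had started higher in SK-MEL-5. Of the 17 tested members of 18, 12 were called higher after treatment and 3 lower, against 2 higher and 12 lower without treatment, and the median moved from -1.50 to 1.22. The line difference changed with treatment in 11 of the 17, all toward MALME-3M, beside 2.67% of all genes. Leaving out any 1 library left 10 or 11 of them, and the transcript estimates gave 9. The summed level of the list was 121 to 126 CPM in untreated and 1344 to 1435 CPM in treated MALME-3M, and 215 to 223 and 707 to 730 CPM in SK-MEL-5.

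CIITA (chr16:10866222-10943021, GRCh38), the master regulator of the class, stood at 134, 120 and 157 CPM in treated MALME-3M and at 51.8, 45.7 and 57.3 CPM in treated SK-MEL-5. The groups do not overlap, at 1.41 ± 0.10 (adjusted p = 2.46e-10), where the untreated lines had differed by -0.61. CD74, the invariant chain that escorts class II molecules, was at 625, 656 and 651 CPM against 166, 176 and 177 CPM. It was higher in MALME-3M before treatment too, by 0.58 then and 1.90 ± 0.08 after (adjusted p = 4.35e-14).

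The peptide-binding chains showed the crossing most fully. HLA-DRA (chr6:32439842-32445046) had 1 count over the 3 untreated MALME-3M libraries and a mean of 2.73 CPM in untreated SK-MEL-5. After treatment it reached 50.1, 51.1 and 56.8 CPM in MALME-3M and 24.6, 30.3 and 31.8 CPM in SK-MEL-5. Every treated MALME-3M library thus stood above every treated SK-MEL-5 library (0.87 ± 0.12, adjusted p = 1.84e-06). HLA-DQB1 rose to 56.1, 55.5 and 61.7 CPM in MALME-3M from an untreated mean of 0.0748 CPM, and stood at 8.71, 11.5 and 6.71 CPM in SK-MEL-5, whose untreated mean was 1.19 CPM. Its treated difference was 2.68 ± 0.16 (adjusted p = 1.06e-11). HLA-DPA1 was at 92.8 ± 4.18 against 34.9 ± 1.79 CPM after treatment and at 0.865 against 3.08 CPM without it. HLA-DRB1 was at 45.1 ± 6.35 against 12.5 ± 0.749 CPM and HLA-DRB5 at 8.87 ± 1.19 against 2.28 ± 0.314 CPM. These alleles vary between people and DRB genes share sequence, so how counts divide among them, and how well each line's alleles match the reference, cannot be told from the tables.

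Members chosen after their values were seen fill out the list. HLA-DPB1 was at 34.8 ± 5.32 against 18.4 ± 0.621 CPM and HLA-DQA1 at 2.27 ± 0.568 against 0.982 ± 0.0883 CPM. HLA-DMA, a chain of the peptide-loading chaperone, was at 26.4 ± 1.41 against 10.5 ± 0.206 CPM. RFX5, which helps hold CIITA at class II promoters, went the other way, at 78.8 ± 6.1 CPM in MALME-3M against 138 ± 3.26 CPM in SK-MEL-5 (-0.80 ± 0.06, adjusted p = 1.85e-10). The protease genes LGMN and CTSS, which trim the invariant chain in endosomes, were the other called members lower in MALME-3M, by -0.68 and -0.54.

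Promoter sequences of the genes these results turn on are shown for their regulatory motifs. They are the 150 bases before the start site in RefSeq (GRCh38.p14), 5′ to 3′ on the gene's strand, with only the matches of the motif named for each gene in capitals; matches of the other motifs outside those, such as a Y box in IRF1 and in BST2 and GAS matches in BST2, are left in lower case. The first pair carries the Y box (ATTGG or its reverse complement CCAAT), the class II element bound by NF-Y: HLA-DQB1 lies at chr6:32666658-32666807, minus strand, and CD74 at chr5:150412911-150413060, minus strand. IRF1, at chr5:132490774-132490923, minus strand, carries a GAS (TTCNNNGAA). BST2, at chr19:17405631-17405780, minus strand, and IFI27, at chr14:94110586-94110735, plus strand, carry ISRE letters (TTTC, any 2 bases, TTTC), which overlap each other in BST2 and overlap a GAS match in both genes.
HLA-DQB1: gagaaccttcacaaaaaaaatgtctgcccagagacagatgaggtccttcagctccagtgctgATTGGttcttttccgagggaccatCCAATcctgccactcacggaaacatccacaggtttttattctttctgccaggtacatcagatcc
CD74: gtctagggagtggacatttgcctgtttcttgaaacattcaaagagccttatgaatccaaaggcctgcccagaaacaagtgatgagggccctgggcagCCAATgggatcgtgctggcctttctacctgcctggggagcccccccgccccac
IRF1: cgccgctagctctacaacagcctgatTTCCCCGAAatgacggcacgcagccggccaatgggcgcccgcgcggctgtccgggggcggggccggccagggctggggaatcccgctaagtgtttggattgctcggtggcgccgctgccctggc
BST2: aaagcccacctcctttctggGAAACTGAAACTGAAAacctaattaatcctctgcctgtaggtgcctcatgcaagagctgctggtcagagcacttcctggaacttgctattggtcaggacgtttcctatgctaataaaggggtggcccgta
IFI27: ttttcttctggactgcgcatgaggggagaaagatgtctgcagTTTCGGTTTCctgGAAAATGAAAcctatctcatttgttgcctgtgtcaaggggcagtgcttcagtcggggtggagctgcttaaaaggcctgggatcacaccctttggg

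Over the whole windows of the table, 250 bases before to 49 after the start, and on both strands, the Y box stood in 11 of the 14 class II promoters found there (78.6%) and in 35.7% of all 27305 promoters. ISRE letters were in 22 of 38 antiviral promoters (57.9%) and 9 of 17 class I promoters (52.9%), against 3.65% of all and 0 of the 14 class II promoters. Among genes at least 2-fold apart between the treated lines, ISRE letters were in 3.61% of promoters of the genes higher in MALME-3M and 2.66% of the genes lower, against 3.00% of tested genes. A match describes letters and is not a measured site.

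MHC class I genes were mostly higher in treated MALME-3M, as they had been without treatment. All 21 members were tested, 13 were called higher and 3 lower, and the median was 0.51 after and 0.53 before treatment. The difference changed toward MALME-3M in 3 and toward SK-MEL-5 in 5, beside 2.67% and 1.79% of all genes. From the transcript estimates that median was 0.03. B2M, the light chain, stood at 1353, 1315 and 1268 CPM against 887, 925 and 949 CPM, which do not overlap (0.51 ± 0.05, adjusted p = 6.34e-09). The heavy chain HLA-C was at 736 ± 32.1 against 372 ± 16.1 CPM. HLA-B was at 934 ± 26.4 against 597 ± 2.06 CPM, a difference of 0.65 where the untreated lines had -0.49. This gene's sign depended on the quantification: the transcript estimates gave -0.31 (adjusted p = 0.0193).

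Genes that make and load class I peptides were closer. The transporter TAP1 was at 341, 340 and 400 CPM against 393, 399 and 374 CPM, overlapping and not called (adjusted p = 0.171). The immunoproteasome subunit PSMB9 was at 76.6 ± 1.43 against 66.2 ± 5.59 CPM, called by a narrow margin (adjusted p = 0.0284) that was lost with upper-quartile scaling (0.0508), with transcript estimates (0.111) and without MALME-3M library 2 or 3 or SK-MEL-5 library 1 or 3 (0.0579 to 0.157). The proteasome activator PSME1 at 456 ± 24.3 against 215 ± 4.43 CPM, the loading factor TAPBP at 201 ± 9.97 against 101 ± 6.00 CPM and the heavy chain HLA-F at 167 ± 9.22 against 68.1 ± 3.36 CPM were higher in MALME-3M. NLRC5, the class I transactivator, was lower in MALME-3M, at 54.0, 56.0 and 66.1 CPM against 91.8, 88.8 and 94.4 CPM (-0.64 ± 0.11, adjusted p = 2.28e-05). Its transcript estimate of -0.70 was not called (adjusted p = 0.182).

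Antiviral effectors moved opposite to class II. Without treatment 33 of the 47 tested members were called higher in MALME-3M and 5 lower. After treatment 18 were called higher and 22 lower, and the median had moved from 0.68 to -0.12. In 28 of the 47 the difference changed toward SK-MEL-5, beside 1.79% of all genes, and in 1, MX1, toward MALME-3M. Leaving out any 1 library gave 26 to 29, and the transcript estimates gave 16. The summed level was 1837 to 1894 CPM in untreated MALME-3M and 1880 to 1939 CPM in untreated SK-MEL-5, and after treatment 4387 to 4776 against 5512 to 5595 CPM.

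BST2, the tetherin that holds virions at the cell surface, had the widest change of the list. It was at 46.5 CPM in untreated MALME-3M and 0.233 CPM in untreated SK-MEL-5. Treated MALME-3M held 217, 213 and 225 CPM and treated SK-MEL-5 27.0, 27.9 and 27.5 CPM, so the gap narrowed from 7.65 to 2.99 ± 0.06 (adjusted p = 9.91e-19) with the groups still far apart. IFI27, a mitochondrial interferon-induced protein, was at 90.5, 94.4 and 95.7 CPM against 4.84, 6.03 and 5.28 CPM, a gap of 4.12 where the untreated one was 6.46. Others, chosen after their values were seen, closed the gap or crossed. OAS1, a synthetase of the RNase L pathway, had been at 9.03 against 1.43 CPM and reached 18.5 ± 2.31 against 18.3 ± 4.89 CPM, not called (adjusted p = 0.912). OAS2 narrowed from 9.21 against 0.616 CPM to 75.1 ± 8.38 against 45.0 ± 1.19 CPM. IFIT1, which binds viral RNA ends, crossed from 3.52 against 0.888 CPM to 4.39 ± 0.659 against 8.86 ± 0.535 CPM.

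The GTPase MX1 widened instead, from 11.95 against 3.12 CPM to 56.5, 53.6 and 63.2 against 4.16, 4.04 and 4.62 CPM. The related MX2 was at 6.40 ± 1.25 against 0.128 ± 0.123 CPM. SAMHD1, which depletes deoxynucleotides, was the member furthest below in MALME-3M: 14.3, 13 and 14.7 CPM stood against 148, 148 and 145 CPM in SK-MEL-5 (-3.40 ± 0.07, adjusted p = 1.39e-18), and it had been lower without treatment as well.

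**Figure D2:**
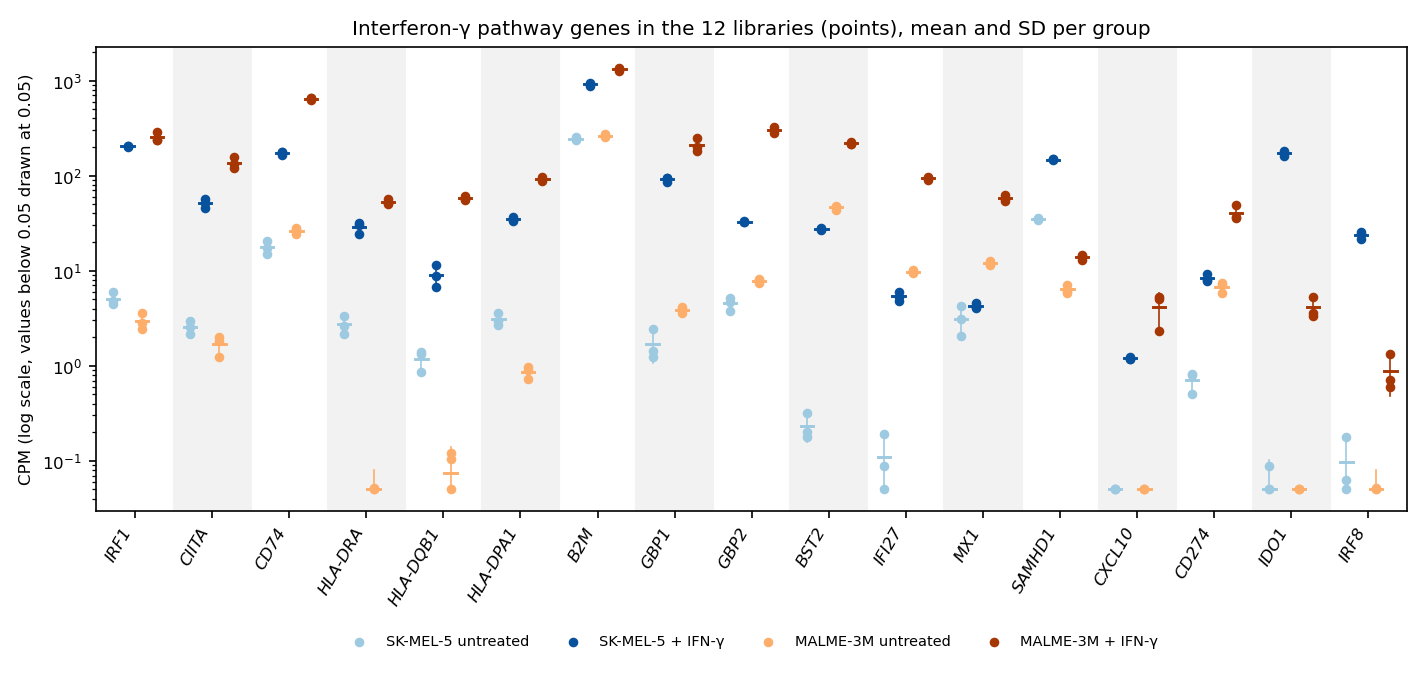
CPM on a log axis of 17 interferon-γ pathway genes in every library, with untreated (pale) and treated (dark) points of SK-MEL-5 (blue) and MALME-3M (orange to brown), the mean as a bar and the SD as a line over 3 libraries; values below 0.05 CPM are drawn at 0.05. HLA-DRA, HLA-DQB1 and HLA-DPA1 are lowest in untreated and highest in treated MALME-3M, BST2 and IFI27 are higher in MALME-3M before and after treatment, and SAMHD1, IDO1 and IRF8 are highest in treated SK-MEL-5.

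The guanylate-binding GTPases, which attack intracellular pathogens, were listed together with the GTPase genes IRGM and IRGQ. Members of this list were higher in treated MALME-3M wherever a difference was called, in 5 of the 7 tested of 9. Their summed level was 671 to 818 CPM against 189 to 194 CPM. GBP2 stood at 304, 281 and 324 CPM against 33.0, 32.6 and 32.2 CPM (3.22 ± 0.07, adjusted p = 8.43e-18), up from an untreated gap of 0.78. GBP3 was at 99.6 ± 5.91 against 6.81 ± 0.789 CPM, and its gap of 3.87 was below the untreated 5.87. GBP1 at 199, 183 and 250 CPM against 85.8, 94.8 and 93.5 CPM and GBP4 at 84.7 ± 13.2 against 25.6 ± 0.179 CPM were higher by 1.21 and 1.73, and neither passed the interaction test (adjusted p = 0.963 and 0.606). The fifth was GBP7, and GBP5 and IRGQ were not called. These last were named after their values were seen.

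Complement and apolipoprotein L genes divided. Of 15 tested members of 18, 7 were higher and 4 lower. With treatment the difference moved toward SK-MEL-5 in 6 members, beside 1.79% of all genes, and toward MALME-3M in 1, C1S, beside 2.67%. The proteases that start the classical complement cascade were higher in MALME-3M, C1S at 121 ± 1.90 against 37.5 ± 1.68 CPM and C1R at 88.2 ± 3.74 against 18.1 ± 1.15 CPM, although untreated C1S had been the lower by 0.99, at 4.54 against 8.89 CPM. APOL4 was at 7.96 ± 1.56 against 2.50 ± 0.328 CPM.

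Secreted signals were lower in MALME-3M in 12 of the 19 tested members of 28 and higher in 6. CXCL9 and CXCL10, T cell attractants induced by IFN-γ, were among the 6. CXCL9 reached 7.09, 5.39 and 7.04 CPM against 0.783, 1.51 and 1.17 CPM (2.50 ± 0.33, adjusted p = 1.6e-06). CXCL10 reached 5.23, 2.29 and 5.07 CPM against 1.17, 1.18 and 1.24 CPM (1.80 ± 0.35, adjusted p = 0.00031), from 0 counts in all untreated libraries. The third ligand of their receptor, CXCL11, named after its values were seen, was called lower in MALME-3M, at 0.433 ± 0.410 against 3.03 ± 0.917 CPM (-2.72 ± 0.52, adjusted p = 0.000177). The membrane chemokine CX3CL1 at 13.1 ± 1.62 against 0.627 ± 0.480 CPM and the cytokine LIF at 142, 142 and 193 CPM against 15.5, 14.1 and 16.7 CPM were also higher, by 4.45 and 3.37, against 3.40 and 3.00 without treatment. The inflammatory cytokines IL6, at 0.769 ± 0.0697 against 12.3 ± 0.791 CPM, and CXCL8, at 0.438 ± 0.157 against 5.58 ± 1.93 CPM, were lower in MALME-3M, as without treatment, where the differences were -4.10 and -4.58.

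Ligands that T and NK cells read, listed together with the enzyme gene IDO1, were called higher in 12 of the 17 tested members of 26 and lower in 4. The 4 were IDO1, PVR (-1.02), CEACAM1 (-1.13) and TNFRSF14 (-0.15). PVR, CEACAM1 and TNFRSF14 were named after their values were seen. CD274, which encodes PD-L1, stood at 36.5, 36.2 and 48.8 CPM in MALME-3M and 7.73, 9.26 and 8.08 CPM in SK-MEL-5. The lowest MALME-3M library is well above the highest of SK-MEL-5 (2.28 ± 0.14, adjusted p = 2.29e-11), and the untreated lines held 6.76 and 0.712 CPM. The related CD276 at 116 ± 4.01 against 46.9 ± 4 CPM, the NKG2D ligand MICB at 19.5 ± 3.13 against 6.94 ± 0.346 CPM and the adhesion ligand ICAM1 at 382 ± 15.3 against 312 ± 4.25 CPM were higher too. IDO1, the enzyme that degrades tryptophan, was far lower in MALME-3M: 3.61, 3.37 and 5.34 CPM stood against 160, 172 and 183 CPM (-5.37 ± 0.13, adjusted p = 6.83e-16). Untreated libraries held 0 and 2 counts, and the interaction test did not pass (adjusted p = 0.944). With so few untreated counts, that test cannot show whether the gap of IDO1 changed with treatment.

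In the tryptophan and kynurenine list, IDO1 included, 9 of 12 tested members of 15 were called lower and 2 higher. KYNU, kynureninase, was at 31.0 ± 2.96 against 201 ± 11.9 CPM, QPRT, an enzyme of NAD synthesis, at 3.52 ± 0.228 against 25.3 ± 0.538 CPM and the amino acid transporter SLC7A5 at 164 ± 13.6 against 399 ± 20.2 CPM. Their untreated differences of -2.90, -2.40 and -1.08 stood beside -2.69, -2.85 and -1.28 after treatment. WARS, tryptophanyl-tRNA synthetase, was at 4142, 4155 and 4437 CPM against 6391, 6372 and 6197 CPM (-0.57 ± 0.04, adjusted p = 1.36e-10), but the transcript estimates gave 0.21 (adjusted p = 0.0553).

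Cell death genes went both ways, 13 of 31 tested higher and 10 lower with a median of 0.06. The difference changed toward MALME-3M in 2 and toward SK-MEL-5 in 5, beside 2.67% and 1.79% of all genes. The inflammatory caspase CASP1 was at 45.0 ± 0.908 against 15.8 ± 1.21 CPM, a gap of 1.51 that had been 3.50 without treatment. DFNA5, a gasdermin, was at 49.8 ± 0.837 against 16 ± 0.976 CPM. MLKL, the executioner of necroptosis, was at 11.1 ± 1.91 against 53.6 ± 4.74 CPM (-2.27 ± 0.12, adjusted p = 1.93e-12). The decoy TRAIL receptor TNFRSF10D had 7.27 ± 0.229 CPM in MALME-3M and 1 count over the 3 SK-MEL-5 libraries.

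**Figure D3:**
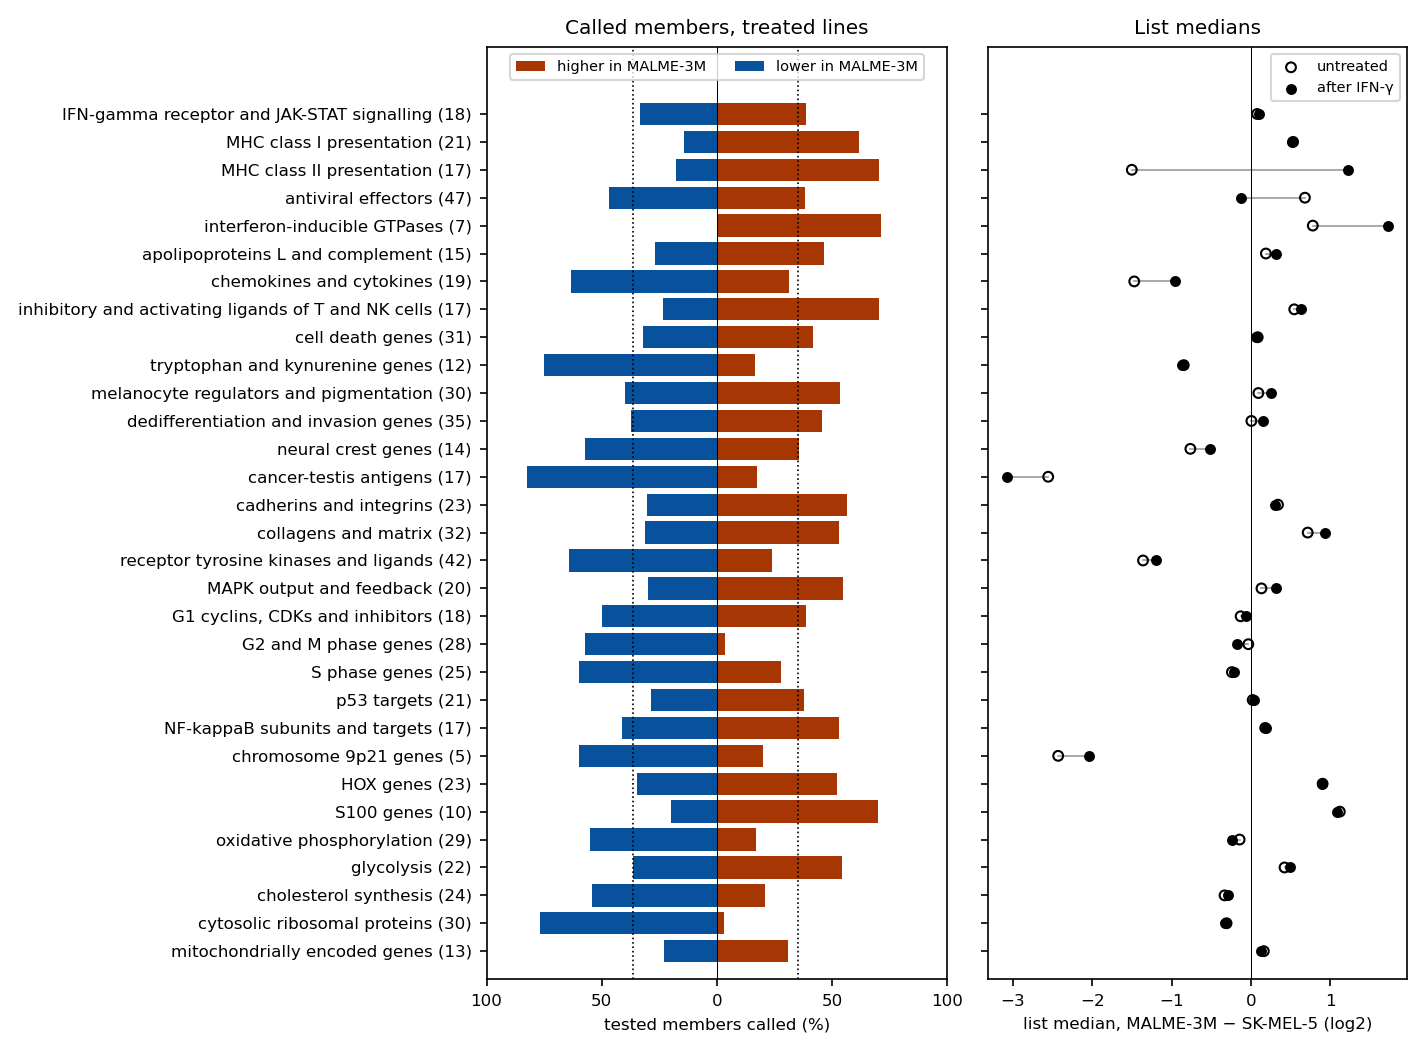
For each of 31 gene lists (number of tested members in brackets), the left panel gives the share of tested members called higher (right) or lower (left) in treated MALME-3M, with dotted lines at 35.4% and 36.4% of all tested genes, and the right panel the median log2 difference between the lines without treatment (open) and after it (filled). The class II and antiviral medians cross 0 with treatment, and cancer-testis antigens have the lowest treated median at -3.07.

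Of the regulators of the melanocyte lineage, MITF, PAX3 and SOX10 were close between the treated lines. MITF stood at 673, 636 and 556 CPM against 606, 597 and 611 CPM and PAX3 at 94.4, 98.6 and 104 CPM against 102, 89.9 and 99.9 CPM, both overlapping and not called (adjusted p = 0.568 and 0.72). From transcript estimates MITF was 0.68 higher in MALME-3M and called (adjusted p = 4.06e-06). SOX10 was higher by 0.27 ± 0.05 (adjusted p = 0.000235), at 320 ± 13.1 against 266 ± 11.6 CPM. LEF1, a Wnt pathway factor named after its values were seen, was higher by 1.52 ± 0.05 (adjusted p = 3.15e-15), at 375 ± 20.6 against 131 ± 1.28 CPM. Over the list, 16 of 30 tested members were higher and 12 lower.

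Melanin synthesis genes split by enzyme. TYR, tyrosinase, was at 484, 468 and 465 CPM against 266, 271 and 280 CPM (0.79 ± 0.05, adjusted p = 1e-11), and PMEL, the fibril protein of melanosomes, at 2802 ± 71.1 against 1417 ± 4.65 CPM. TYRP1, which acts after tyrosinase, was at 6.91, 5.90 and 4.62 CPM against 482, 480 and 458 CPM (-6.36 ± 0.09, adjusted p = 2.37e-20), and the related DCT at 705 ± 81.4 against 2183 ± 63.5 CPM. MLANA, the antigen MART-1, was slightly lower, at 395 ± 16.5 against 486 ± 8.31 CPM. S100B was at 737 ± 28.1 against 132 ± 6.86 CPM. The receptor KIT had 19.1 ± 1.82 CPM in MALME-3M and 3 counts over the SK-MEL-5 libraries, a ratio of 345 with a 95% Clopper-Pearson interval of 118 to 1676 that covers counting error only. Of these genes S100B alone passed the interaction test, by 0.53.

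The TYR promoter is shown for its M box (TCATGTG, alone in capitals), the element bound by MITF, at chr11:89177725-89177874 on the plus strand of GRCh38.p14. The motif was in 5 of 23 melanocyte promoters found in the table (21.7%) and 2.99% of all.
TYR: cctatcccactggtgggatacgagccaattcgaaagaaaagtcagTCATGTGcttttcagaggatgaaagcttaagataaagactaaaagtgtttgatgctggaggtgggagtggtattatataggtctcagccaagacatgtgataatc

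**Figure D4:**
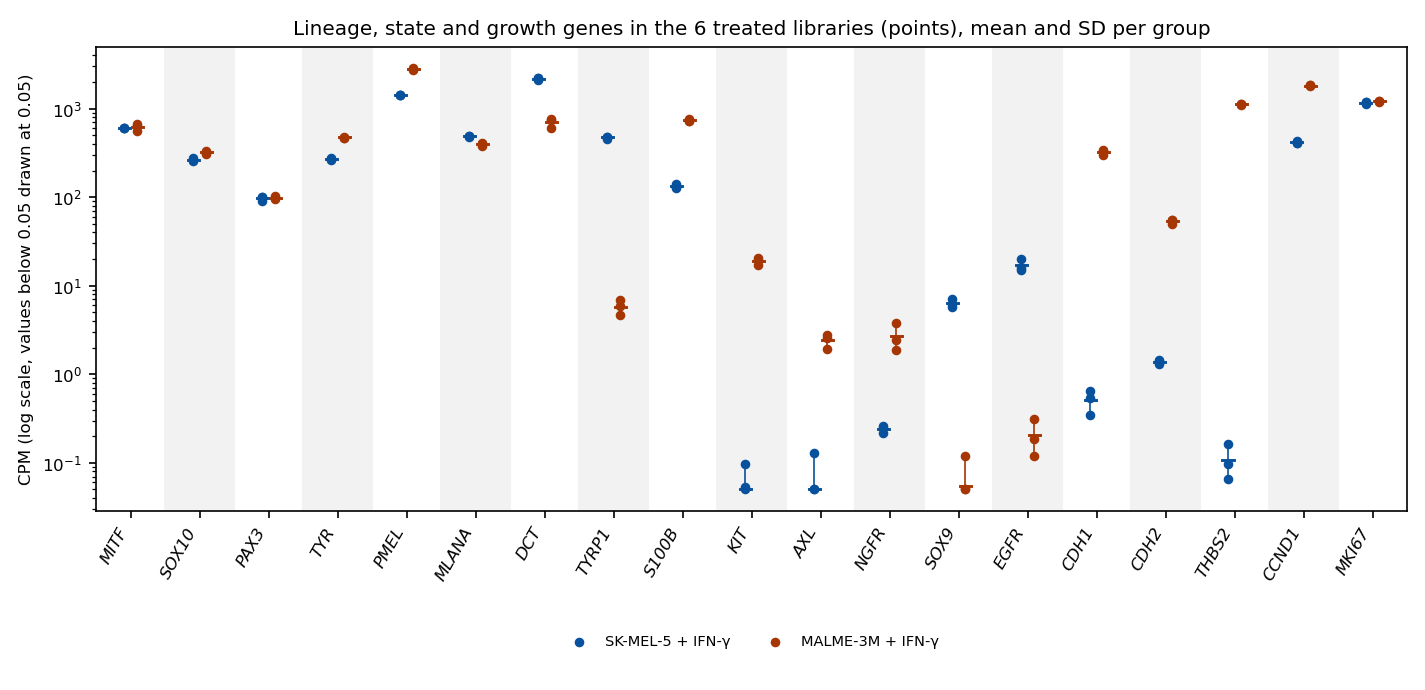
CPM on a log axis of 19 lineage, state and growth genes in the 6 treated libraries (points), with the mean as a bar and the SD as a line, SK-MEL-5 in blue and MALME-3M in brown. MITF and PAX3 overlap between the lines and MKI67 is close without overlap, while TYRP1, SOX9 and EGFR are lower and KIT, AXL, CDH1 and THBS2 higher in MALME-3M.

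Genes of dedifferentiated and neural crest states went both ways. In the dedifferentiation and invasion list 16 of 35 tested members were higher and 13 lower, with a median of 0.15 and a median absolute difference of 2.12. That median was 0.27 from transcript estimates, 0.36 with DESeq2, 0.38 with every gene that had a count and 0.57 from the treated libraries alone. In the neural crest list 5 of 14 tested members were higher and 8 lower, with a median of -0.52. This median was -0.24 with every gene that had a count, -0.28 from transcript estimates and -0.32 with DESeq2. It was -0.38 from the treated libraries alone and -0.63 without SK-MEL-5 library 1. The receptor tyrosine kinase AXL was at 1.92, 2.58 and 2.78 CPM against 0, 0 and 0.13 CPM, a ratio of 67.2 with a counting interval of 18.3 to 560, and NGFR, the neural crest receptor CD271, at 2.70 ± 0.970 against 0.240 ± 0.0229 CPM. In the opposite sense SOX9 had 6.41 ± 0.684 CPM in SK-MEL-5 and 3 counts over the MALME-3M libraries, and EGFR stood at 19.9, 16 and 15.2 CPM against 0.12, 0.187 and 0.314 CPM (-6.27 ± 0.24, adjusted p = 2.04e-14). AXL and EGFR, both receptors of dedifferentiated melanoma states, thus stood at opposite ends in these lines.

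Adhesion and matrix genes held some of the widest gaps. CDH1, E-cadherin, was at 345, 334 and 297 CPM against 0.342, 0.538 and 0.651 CPM (9.33 ± 0.48, adjusted p = 1.66e-12). CDH2, N-cadherin, was also higher in MALME-3M, at 53.5 ± 3.33 against 1.38 ± 0.0774 CPM. Both gaps were wider than in the untreated lines, where SK-MEL-5 held 4.05 CPM of CDH1 and 3.8 CPM of CDH2. The laminin receptor ITGA3 was at 324 ± 7.24 against 19.2 ± 1.04 CPM, ITGA4 at 136 ± 4.17 against 18.2 ± 0.906 CPM, and the collagen receptor ITGA1 at 0.368 ± 0.202 against 60.7 ± 1.94 CPM. In the matrix list 17 of 32 tested members were higher and 10 lower, with basement membrane NID1 at 181 ± 5.81 against 0.345 ± 0.0871 CPM, COL6A3 at 41.4 ± 3.48 against 0.177 ± 0.101 CPM and the proteoglycan VCAN at 10.7 ± 0.739 against 977 ± 24.4 CPM.

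Fitted differences were ranked among called genes with a mean of at least 20 CPM in the higher line and more than 3 counts over the libraries of the lower line. By that ranking THBS2, a matricellular thrombospondin, led the genes higher in MALME-3M, at 1128, 1140 and 1109 CPM against 0.0978, 0.162 and 0.0651 CPM (13.23 ± 0.12, adjusted p = 5.35e-23). Next in that ranking were CDCP1, COL11A1, the retinoic acid enzyme ALDH1A3, SCML4, the mechanosensitive channel PIEZO2, TMEM163 and NR2F2-AS1, with differences of 9.43 to 10.59. Furthest below by the same ranking were GRAMD1B, a sterol transporter, at 0.291 ± 0.174 against 582 ± 10.7 CPM (-10.98 ± 0.18, adjusted p = 1.21e-19), then PARP8, the phosphatase PTPRG, RP1-90G24.10, CDCA7L, LIMCH1, CECR2 and the sodium-calcium exchanger SLC8A1, with differences of -10.13 to -8.72. All 16 were also called between the untreated lines in the same direction.

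Receptor tyrosine kinases and their ligands were mostly lower in MALME-3M, 27 of 42 tested members against 10 higher, with a median of -1.20. EPHA5 had 39.5 ± 1.33 CPM and VEGFC 11.8 ± 1.25 CPM in SK-MEL-5, against 3 counts and 1 count over the MALME-3M libraries, while the growth factor FGF1 was at 12.1 ± 0.975 CPM in MALME-3M against 0.0978 ± 0.169 CPM. Feedback genes of the MAPK pathway were higher in 11 of 20 and lower in 6, among them DUSP5 at 18 ± 2.75 against 3.76 ± 0.363 CPM and the AP-1 subunit FOSL1 at 98.9 ± 14.9 against 20.2 ± 2.65 CPM. CCND1, cyclin D1, stood at 1827, 1807 and 1828 CPM against 405, 435 and 413 CPM (2.12 ± 0.04, adjusted p = 2.13e-18), less far apart than the untreated 2.82.

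Proliferation genes differed by small amounts. MKI67 was at 1234, 1184 and 1226 CPM against 1174, 1139 and 1183 CPM and was not called (0.06 ± 0.04, adjusted p = 0.232), although the groups do not overlap, as in 74.6% of tested genes (37.0% of tested genes with MALME-3M higher and 37.7% with it lower). From transcript estimates it was 0.25 and called (adjusted p = 0.00352). Of 28 genes of G2 and M phase, 16 were called lower in treated MALME-3M and 1 higher, where without treatment 10 were higher and 11 lower. The difference changed toward SK-MEL-5 in 7 of the 28 and toward MALME-3M in 0, beside 1.79% and 2.67% of all genes. That count of 7 was 1 from transcript estimates, 12 with upper-quartile scaling and 3 to 12 without 1 library. The mitotic regulators BIRC5, at 81.1 ± 3.18 against 268 ± 15.6 CPM, and PLK1, at 36.0 ± 2.43 against 88.1 ± 1.54 CPM, differed by -1.72 and -1.29, and the list's median was -0.17. Of 25 S phase genes 15 were lower and 7 higher, with RRM1 at 102 ± 4.99 against 209 ± 8.89 CPM.

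Cancer-testis antigens, germline genes that tumours can display, were lower in MALME-3M in 14 of the 17 tested members and higher in 3. MAGEB2 had 10.7 ± 0.541 CPM in SK-MEL-5 and 0 counts in MALME-3M, where it was at least 216-fold lower against a floor of 3 counts over the group. MAGEC2 was at 5.44 ± 0.395 against 53.8 ± 2.46 CPM and MAGEA12 at 5.55 ± 0.914 against 46.3 ± 3.24 CPM. Members of this family have near-identical copies, so the division of reads among them is uncertain.

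Some genes were present in a treated line and all but silent in the other, defined as a mean of at least 5 CPM against at most 3 counts over 3 libraries (0.0498 CPM in MALME-3M and 0.0552 CPM in SK-MEL-5). There were 89 present in MALME-3M and 122 present in SK-MEL-5, and 72 and 99 of them were silent in the same line without treatment too. AEBP1, a transcriptional repressor, had 239, 242 and 233 CPM in MALME-3M and 0 counts in SK-MEL-5, at least 4308-fold. TMSB4X, the actin-binding thymosin β4, had 221 ± 7.51 CPM against 2 counts, TRPV4, a calcium channel, 107 ± 3.29 CPM against 0 and the ubiquitin ligase gene TRIM4 87.5 ± 5.84 CPM against 0. TMSB4X and the histone genes HIST1H1D and HIST1H3G, at 107 ± 4.97 and 95.3 ± 4.14 CPM against 0 and 1 count, have near-identical copies. KIAA1755 and the phosphatase PTPRE completed the 8 highest. In SK-MEL-5 the 8 highest were ASB4 at 162 ± 1.09 CPM, the neurofilament NEFL at 126 ± 2.33 CPM, the oncostatin M receptor OSMR at 88.5 ± 4.35 CPM, the RNA-binding IGF2BP1 at 86.5 ± 3.74 CPM, TEX15, IL13RA2, ADAM23 and ABCA8, each with 1 to 3 counts over the MALME-3M libraries.

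Several silent genes lay side by side on chromosome 9. CDKN2A, the tumour suppressor locus of melanoma, and CDKN2B had 0 counts in all treated libraries of both lines, and the adjacent MTAP had 5 and 3 counts. On the one side, KLHL9 (chr9:21329671 onward) had 27.1, 27.0 and 28.7 CPM in SK-MEL-5 and 0 counts in MALME-3M, at least 553-fold. On the other side, ELAVL2 (from 23690104), TUSC1 (25676389), CAAP1 (26840685), PLAA (26904083), IFT74 (26947039), MOB3B (27325209) and C9orf72 (27546545) had means of 5.04 to 47.4 CPM in MALME-3M and 0 to 2 counts in SK-MEL-5. Further out FOCAD was present in both lines and not called. The same genes were silent in the same lines without treatment. Apart from CDKN2A, MTAP, KLHL9 and ELAVL2, these neighbours were chosen after their values were seen.

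**Figure D5:**
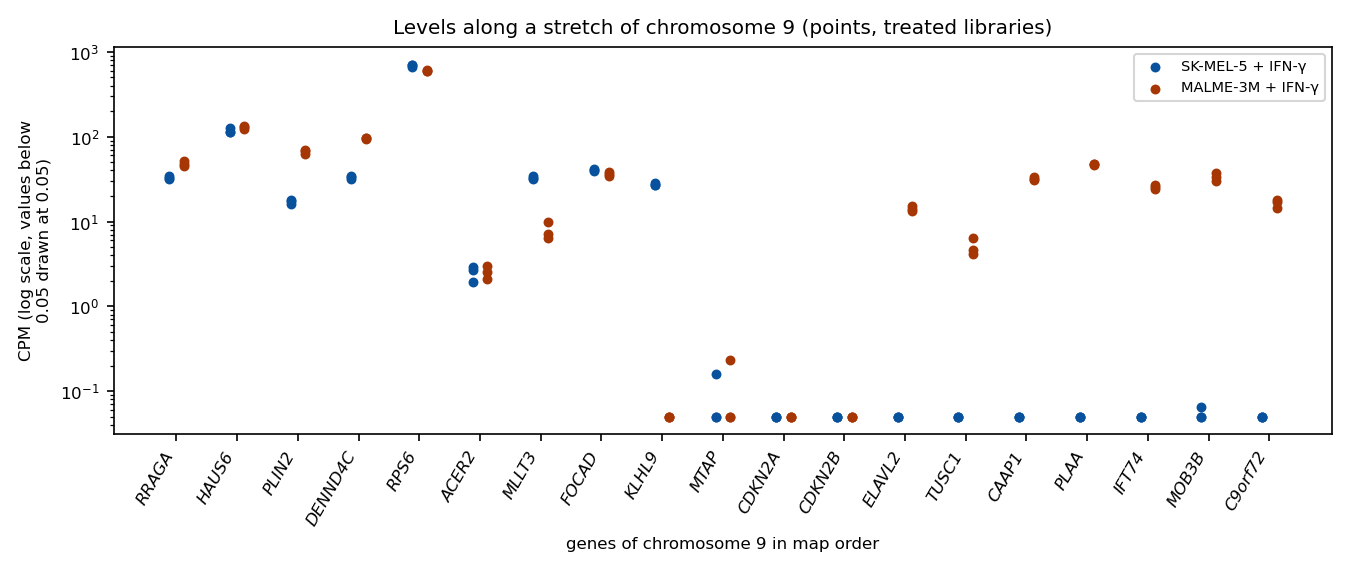
CPM on a log axis of genes in map order along a stretch of chromosome 9 in the 6 treated libraries, for genes with at least 100 counts in a treated line and the trio MTAP, CDKN2A and CDKN2B. Both lines lie near the bottom at that trio, MALME-3M also at KLHL9, and SK-MEL-5 from ELAVL2 to C9orf72.

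By chromosome, the median difference ran from -0.52 on chromosome 8 (470 tested genes, 59.4% called lower) through -0.43 on 11 and -0.41 on 13 to 0.37 on 14 (424 genes, 58.7% called higher) and 0.44 on 21. The untreated medians of these 5 were -0.53, -0.45, -0.37, 0.33 and 0.36.

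Markers of other cell types moved with the line and are given for that reason. The macrophage and dendritic list summed to 214 to 230 CPM in treated MALME-3M and 20.2 to 27.0 CPM in treated SK-MEL-5. Only 4 of its 10 members had enough reads to be tested, and all 4 were called higher in MALME-3M, by 1.74 to 7.99. Its level came mostly from CD68 at 116 ± 5.40 against 21.7 ± 3.12 CPM, FCER1G at 58.0 ± 3.02 against 0.229 ± 0.0903 CPM and ITGAX at 48.3 ± 1.79 against 0.231 ± 0.0881 CPM. Among the members with few or no reads, CD14 had 6 and 0 counts, TYROBP 0 and 3 and CD163 0 and 0. The fibroblast list summed to 15.6 to 18.1 against 131 to 136 CPM, of which LUM gave 8.55 ± 1.39 and 125 ± 2.73 CPM, with PDGFRA at 3 and 4 counts and COL3A1 at 3 and 6. All 5 of its tested members were called, and they divided. COL1A2 and PDGFRB were higher in MALME-3M, with differences of 5.26 and 3.28. LUM, COL1A1 and DCN were lower, with -3.88, -3.20 and -1.31. The epithelial list summed to 336 to 377 against 18.2 to 18.7 CPM, in MALME-3M mostly CDH1, beside KRT18 at 15.4 ± 3.24 CPM, and in SK-MEL-5 mostly KRT10, at 17 ± 0.309 CPM, while EPCAM had 0 and 1 count and KRT5 none. The endothelial list summed to 29.9 to 37.3 against 24.9 to 30.3 CPM, mostly KDR. The T and NK list summed to at most 1.5 CPM and the B cell list to at most 0.96 CPM in any treated library. Reads of the mitochondrial genome were 3.92% to 5.16% of gene counts in treated MALME-3M and 3.63% to 4.20% in treated SK-MEL-5. The nuclear RNA MALAT1 took 1.85% to 2.27% and 1.36% to 1.4%. The part of these in the results above was not tested.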

How the data were processed

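Total RNA of the 2 lines was sequenced from 12 libraries, 6 of them treated with IFN-γ. The authors deposited read counts per gene (44700 gene rows, of which 15830 are assembled loci without a symbol) and estimated counts per transcript. Tools listed in the submitters' processing notes, without versions or roles, are kallisto, HTSeq, STAR, cutadapt and SAMtools, and the build is hg38. The sources used here give neither the strand setting nor the annotation, nor whether molecular identifiers were counted, so reads of overlapping or antisense genes cannot be told apart. The 5 summary lines of each count table were left out.

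From the deposited counts, edgeR 4.0.16 in R 4.3.3 fitted 1 mean per group over all 12 libraries (TMM scaling, filterByExpr with a minimum count of 10, quasi-likelihood test, Benjamini-Hochberg adjustment, threshold 0.05, 8 residual degrees of freedom). The contrasts were treated MALME-3M minus treated SK-MEL-5, the same untreated, and their difference, called the interaction. The script was tested on simulated data. Estimated counts per transcript, of which 49.9% to 55.2% could be tied to genes, were summed, rounded and used as an alternative, beside DESeq2 1.42.0, other scalings and filters, and leaving out each library. Treated library sizes of 15514412 to 21825274 counts put the floor of 3 counts over a group at 0.0498 CPM in MALME-3M and 0.0552 CPM in SK-MEL-5, and intervals and floors cover counting error only. Chi-square values between libraries of a group were 5.93 to 17.4 per gene, above sampling noise, so none was counted as a duplicate.

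The gene lists, named genes and tests were chosen with earlier results of these data known. Named were a set of pathway and lineage genes whatever their values, the 8 widest called differences each way with at least 20 CPM in the higher line, the 8 highest silent genes each way, and up to 4 called members of each list by size. Assembled loci without a symbol were tested and not named. A few named genes are not reported here. Positions are from GENCODE 29 and promoters from RefSeq. Figures were drawn with matplotlib 3.10.9.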

Additional observations from a re-analysis of the deposited data

Results flagged for a closer look

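For 44 of 192 genes, the difference between the lines after treatment was not the one before it, by edgeR's interaction test at an adjusted p below 0.05. Over all tested genes the count was 705 of 15810 (4.46%). The 192 were chosen with earlier results known, so their share is no rate for genes in general. Values are the treated minus the untreated line difference on the log2 scale, positive where it moved toward MALME-3M. Chance alone was not assessed, and no cause was tested. The genes OAS1, OAS2, IFIT1, HLA-DPB1, HLA-DQA1, HLA-DMA and RFX5 were added after their values were seen, and all of them are among the 44.

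Among class II genes the values were CIITA 2.03, CD74 1.32, HLA-DRA 7.58, HLA-DRB1 8.20, HLA-DRB5 8.10, HLA-DQB1 6.53, HLA-DQA1 5.67, HLA-DPA1 3.23, HLA-DPB1 4.54, HLA-DMA 2.53 and RFX5 0.70. Untreated MALME-3M held 1 count of HLA-DRA and of HLA-DRB1, 4 of HLA-DQB1 and 0 of HLA-DRB5 and HLA-DQA1, so the size of these values depends on the prior count of the fit. In the class I pathway they were B2M 0.41, HLA-B 1.13, HLA-C 0.36, TAP1 -0.41 and PSMB9 -0.86. Signalling and transcription factors gave IRF1 1.08 and STAT3 0.50.

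Among antiviral genes and GTPases the values were BST2 -4.66, IFI27 -2.34, OAS1 -2.66, OAS2 -3.14, IFIT1 -3.05, SAMHD1 -0.95, MX1 1.85, GBP2 2.44 and GBP3 -2.00. Other immune genes gave CXCL9 4.80, from 1 and 7 untreated counts, CD274 -0.97, WARS 0.60, C1S 2.68, CASP1 -1.99, DFNA5 0.50 and CD68 -0.996.

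Outside the immune lists they were CDH1 2.80, CDH2 1.41, ITGA1 3.31, from 1 untreated MALME-3M count, S100B 0.53, S100A6 0.48, CCND1 -0.70, MKI67 -0.24, CKAP2 -0.37, KIF20A -0.41 and TRPV4 4.61, the last with 0 counts in treated and 8 in untreated SK-MEL-5.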

How the results depend on the processing

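Of 171 named genes with a fit, 158 kept their direction and their side of the threshold under every alternative that gave a value. The transcript estimates moved the counts most. With 13497 genes tested, they gave 3653 genes higher, 3758 lower and 6245 called alike in the untreated lines, and they turned HLA-B to -0.31, WARS to 0.21 and PAX3 to -0.13. The cause was not tested. They gave no value for 4 named genes. Testing against 2-fold itself left 1988 genes higher and 1974 lower. Silent genes followed their definition: present in MALME-3M were 234 with presence from 1 CPM, 32 with silence at 0 counts and 148 at up to 10, and present in SK-MEL-5 361, 44 and 201. Leaving out 1 treated library gave 5385 to 5507 genes higher and 5542 to 5666 lower. It moved MITF between -0.016 and 0.11 and PAX3 between -0.029 and 0.065, neither of them called. TAP1 was called without MALME-3M library 3 (-0.19) and JAK2 without SK-MEL-5 library 1 (0.19). Counts of the interaction test, recomputed under alternatives chosen after seeing the data, were 422 toward MALME-3M and 283 toward SK-MEL-5 in the report. They were 360 and 309 with DESeq2's size factors, 340 and 351 with upper-quartile scaling, 68 and 69 with transcript estimates, and 240 to 355 and 204 to 362 without 1 library. No paired analysis was possible because the labels give the libraries no replicate numbers. Depth limits genes near the floor, and fitted sizes that rest on few counts depend on the prior count.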

Other observations

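Gene groups outside the interferon pathway also differed between the treated lines. Of 30 cytosolic ribosomal protein genes, 23 were called lower in MALME-3M and 1 higher, with a median of -0.32. RPS3 stood at 286 ± 16.3 against 692 ± 17.2 CPM (n = 3 each), a difference of -1.27. In oxidative phosphorylation 16 of 29 tested genes were lower and 5 higher, while in glycolysis 12 of 22 were higher and 8 lower. SLC16A3, which exports lactate, was at 34.2 ± 2.87 against 0.418 ± 0.109 CPM, and the glucose transporter SLC2A1 at 39.5 ± 1.25 against 10.1 ± 0.819 CPM. In cholesterol synthesis 13 of 24 tested genes were lower and 5 higher. DHCR7, which makes the last step of the pathway, was at 0.337 ± 0.191 against 29.9 ± 0.826 CPM, a difference of -6.46 beside -5.78 without treatment.

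Of the S100 calcium-binding genes 7 of 10 tested were higher in MALME-3M and 2 lower, with S100A6 at 1325 ± 25.6 against 76.2 ± 4.29 CPM. HOX genes, which keep a record of body position, were higher in 12 of 23 and lower in 8, with a median of 0.90 both with and without treatment. The treated median was 0.64 from the treated libraries alone and 0.024 from transcript estimates. These groups' counts are read against 35.4% of all tested genes called higher and 36.4% lower.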
